A study of Homo sapiens with 40 samples.

Results

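The measurements described here come from 218 probe sets of a whole-transcriptome oligonucleotide array that could not be tied to 1 gene, and that stood higher after the highest level of the PI3K inhibitor BKM120 than after the solvent DMSO. A probe set is a group of short probes that together read 1 transcript or 1 part of it. Of the 54613 probe sets that were not array controls, 11721 had no gene symbol in the platform annotation used here, 1801 had several and 41091 had exactly 1. A probe set was taken if it had no symbol or several, if its mean of log2(value + 16) over the 40 arrays was at least 4.89, if the mean of the 4 BKM120 IC90 (max) arrays exceeded the mean of the 4 DMSO arrays by at least 1 on that scale, and if all 4 treated values lay above all 4 DMSO values. The limit on the mean left 27074 probe sets, of which 2867 had no symbol, 1102 had several and 23105 had 1. The 218 comprised 199 without a symbol and 19 with several. No gene is named for any of them, and no sequence of them was used here. They were chosen by their values on the 8 arrays of BKM120 IC90 (max) and DMSO, so their difference between those groups is described and not tested.

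PI3K is a lipid kinase that passes signals from growth factor receptors to the kinases AKT and mTOR, which drive protein synthesis, growth and survival, and the pathway is often active in melanoma. BKM120 and GDC0941 are inhibitors of the class I PI3K enzymes, and BEZ235 inhibits both PI3K and mTOR. Array probe sets without a gene symbol were commonly designed from single expressed sequence tags, and many lie outside annotated exons, in introns, in unspliced or extended transcripts or in noncoding RNA.

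All arrays were of A2058 cells, an established human melanoma line, so every result refers to a single line. Cells were treated once for 24 h with DMSO or with 1 of 3 inhibitors at 3 levels each. These were BKM120 at IC30, IC50 and IC90 (max), BEZ235 at IC50, IC90 and max, and GDC0941 (spelled GCD0941 in some labels) at IC50, IC90 and max. Each of the 10 groups had 4 arrays called biological replicates. Nothing in the labels says how the cultures were separated, so p-values measure the spread between these samples. The labels name each level by its inhibition and give no molar concentration, and BKM120 had a single highest level where the other compounds had an IC90 and a max. RNA was taken from whole cultures, so fewer cells of a state and less RNA per cell cannot be told apart, and every array had been scaled to the same trimmed mean of 150.

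Of the melanocyte lineage markers, 7 of 8 passed the limit on the mean, and their summed intensity ran from 7027.1 to 7456 in DMSO and from 8679 to 8889.3 at BKM120 IC90 (max). Of 14 markers of other cell types, 5 passed. Their sum ran from 1243.9 to 1456.6 and from 1254.2 to 1419.4, nearly all of it from LUM, whose group means ran from 859.9 to 1497.67. EPCAM, CDH1, PTPRC, CD3E, CD14, VWF and CDH5 had no group mean above 5.23. The differences between 3' and 5' control probe sets, which grow as RNA degrades, did not differ detectably between the groups that chose the members. For ACTB the difference was 0.83 ± 0.044 (SD, n = 4) at BKM120 IC90 (max) and 0.86 ± 0.136 (SD, n = 4) in DMSO (2-sided exact permutation test, p = 0.743), and for GAPDH it was 0.233 ± 0.020 and 0.206 ± 0.030 (p = 0.20 in the same exact test, where 4 against 4 arrays cannot go below 0.0286). BEZ235 IC50 replicate 3 stood apart from the other 39 arrays, with an ACTB difference of 4.76 against 0.664 to 1.22 and a GAPDH difference of 1.78 against 0.0699 to 0.339. Most results that involve the BEZ235 IC50 group are given with and without that array.

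The 218 probe sets were dim in untreated cells. Their mean deposited intensity over the 4 DMSO arrays had a median of 26.4, with 174 under 50 and 11 over 100, and ran from 7.03 to 1618.4. At BKM120 IC90 (max) the same median was 95.7, with a range from 35.6 to 3441.3. The ratio of the linear means had a median of 3.48 and ran from 2.13 to 8.73. On the log2(value + 16) scale, which understates the change of dim probe sets, the differences had a median of 1.33, quartiles of 1.15 and 1.56, and a range from 1.01 to 2.44. The median of the SD over 4 arrays was 0.13 at BKM120 IC90 (max) and 0.19 in DMSO.

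The per-array median over the 218 showed how separate the group was. It ran from 6.78 to 6.85 on the 4 BKM120 IC90 (max) arrays, which the selection raised, and from 5.31 to 5.61 on the DMSO arrays. On the 8 arrays of BKM120 IC30 and IC50 it ran from 5.15 to 5.41. For BEZ235 it ran from 4.89 to 5.39 at IC50, from 5.21 to 5.45 at IC90 and from 5.22 to 5.45 at max, and for GDC0941 from 5.13 to 5.40 at IC50, from 5.18 to 5.35 at IC90 and from 5.24 to 5.41 at max. The lowest of these was the array with the high ACTB and GAPDH differences, and the highest of the DMSO values was that of replicate 2.

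**Figure D1:**
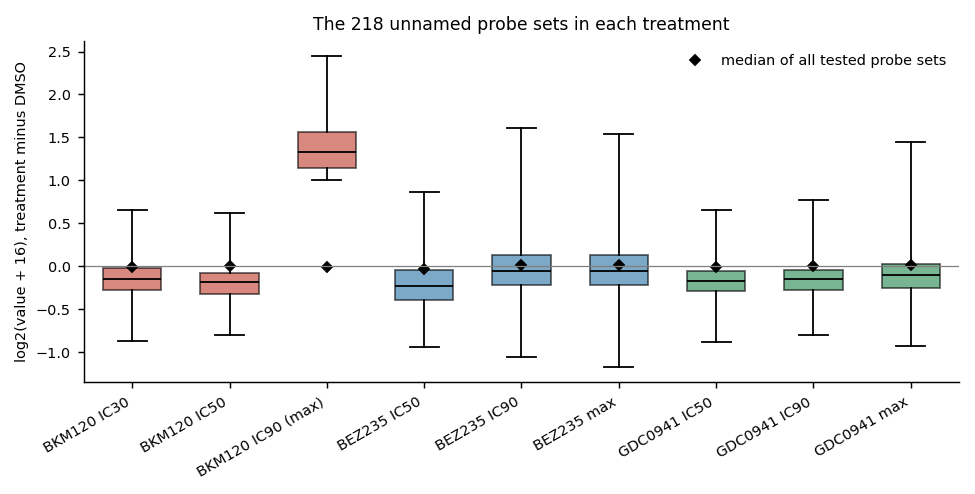
Difference of each of the 218 probe sets from DMSO, as log2(value + 16), in the 9 treatments. Boxes span the quartiles with a line at the median, whiskers reach the lowest and highest probe set, and diamonds mark the median of all 27074 probe sets. The members have a median of 1.33 at BKM120 IC90 (max), where they were chosen, and medians between -0.23 and -0.05 in the other 8 treatments.

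The 12 members with the largest difference were all brought from intensities mostly below 100 in DMSO to between 84.2 and 605.2. The largest difference, 2.44, was that of 240247_at, which read 35, 39.7, 40.4 and 33.1 on the DMSO arrays and 270.4, 257.6, 270.5 and 292 at BKM120 IC90 (max). Its other 8 groups had means between 22.7 and 35.4, all below the DMSO mean of 37.1 ± 3.56 (SD, n = 4). Only the highest BKM120 level stood above DMSO for this probe set. At BKM120 IC50 its values of 24.8, 16.2, 23.9 and 26 all lay below the 4 DMSO values.

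For 222168_at the DMSO values of 92.4, 102.7, 68 and 78.6 compared with 507.7, 447.3, 439.5 and 482.1, a difference of 2.27. It varied more among the other treatments than 240247_at, with a mean of 39.6 ± 8.85 at BKM120 IC30 and 139.9 ± 28.3 at BEZ235 max (SD, n = 4 each). Its values at the lower BKM120 levels, between 30.7 and 52.9, all lay below DMSO, so the probe set was lower than control at IC30 and IC50 and higher only at the top level.

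The DMSO values of 237239_at were 25.1, 31.2, 19.7 and 15.4, against 168.4, 175.6, 172.7 and 141.4 (difference 2.23). Those of 1569519_at were 35.3, 42.3, 38.6 and 29.3, against 192.1, 205.3, 203 and 192.6 (difference 2.04). The dimmest of the 12 in DMSO, 241608_at, went from 14.4, 13.6, 5.5 and 7.3 to 86.7, 94.1, 91.2 and 84.2 (difference 2.02). In each of these 3 the treated arrays lay far above the highest DMSO array, and no other treatment had a mean above 30.6.

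Intensities of 34.3, 51, 39.2 and 51.1 in DMSO became 230.8, 216.3, 188.3 and 262.5 for 240307_at (difference 2.01). For 239892_at, 32.4, 47.1, 43.9 and 45.9 became 225.7, 198, 236 and 207.9 (difference 2.00). For 242448_at, 21.1, 15.9, 19 and 26.3 became 134.4, 147.2, 130.9 and 95.2 (difference 1.96). The first pair had means below DMSO in all other 8 treatments, whereas 242448_at was 0.30 above DMSO at BEZ235 IC90 and within 0.14 of it elsewhere.

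At BKM120 IC90 (max) the least even of the 12 was 222378_at, with 47.5, 93.6, 68.7 and 64.5 in DMSO and 282.6, 387.4, 362.3 and 218.7 at BKM120 IC90 (max) (difference 1.95). For 1560263_at the values were 57.5, 57, 51.6 and 47, against 230.1, 234.8, 259.1 and 246.4 (difference 1.90). Brightest of the 12 was 236168_at, with 133.5, 155.7, 144.2 and 124.5 against 570.1, 597.7, 605.2 and 499.8 (difference 1.91). In all 3 the groups were far apart, but 236168_at also differed among the other compounds, as described with the tests.

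**Figure D2:**
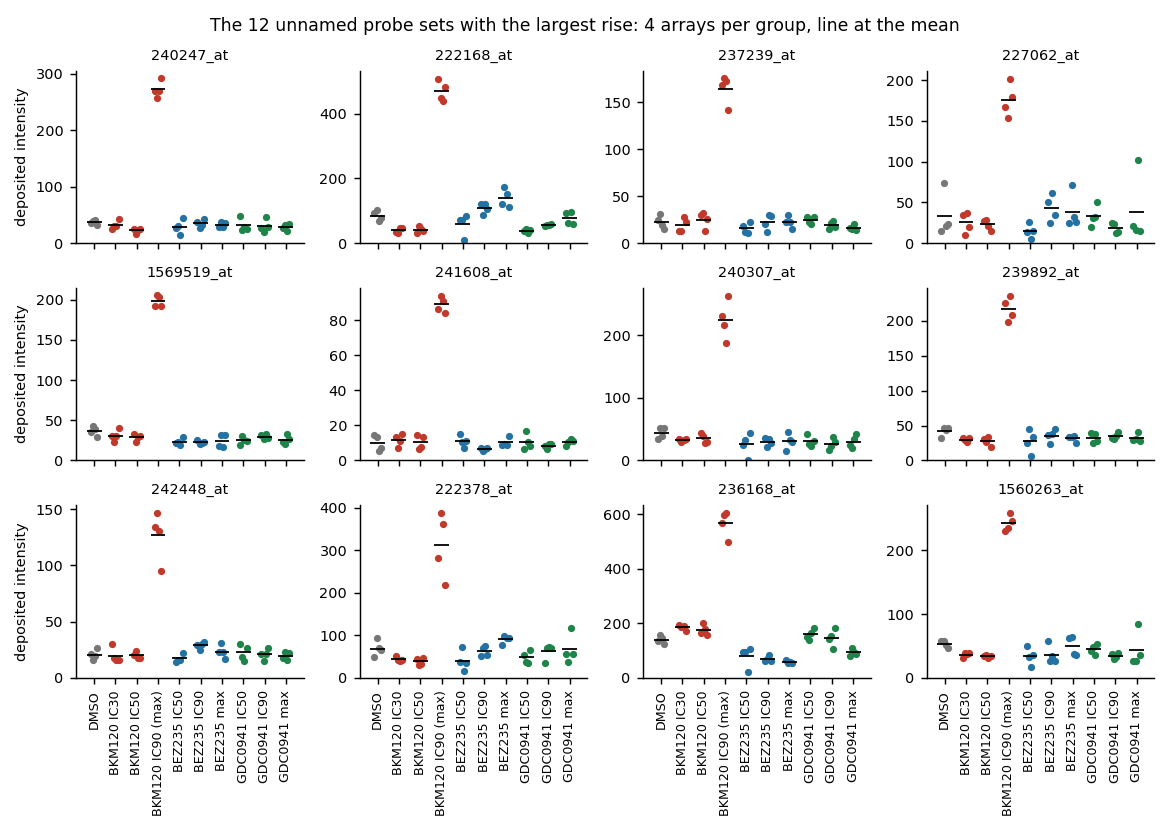
Deposited intensity (linear scale) of the 12 probe sets with the largest difference, 1 point per array, 4 arrays in each of the 10 groups, with a line at the group mean. The 4 BKM120 IC90 (max) arrays lie above all 36 other arrays in every panel; 227062_at has a DMSO array at 73.8 and a GDC0941 max array at 102.1.

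Of the 19 members with several symbols, 5 carried the same pair of symbols and are followed by their identifiers alone. The annotation gave that pair to 9 probe sets, of which 6 passed the limit on the mean. The 5 members were 227062_at (difference 2.09), 214657_s_at (1.84), 225239_at (1.61), 224566_at (1.44) and 234989_at (1.30), and the sixth, 224565_at, stood 0.95 above DMSO and just missed the limit. Probe sets of 1 transcript region are not independent, so these 5 count as fewer than 5 observations.

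The 5 fell into a pair and a group of 3 by their values in the other treatments. 214657_s_at was also 1.24 and 1.28 above DMSO at BEZ235 IC90 and max and 0.79 above it at GDC0941 max, and 224566_at was 1.03, 1.05 and 0.78 above it. 227062_at, 225239_at and 234989_at were between 0.01 and 0.05 above DMSO at GDC0941 max, and their differences at BEZ235 max were 0.21, 0.52 and 0.33. These 3 also varied widely between arrays of a group. 225239_at read 276.1, 1038.3, 211.1 and 287 in DMSO, 422.6, 1035.6, 489.5 and 371.8 at BEZ235 max, 262, 283.6, 1227.4 and 221.1 at GDC0941 max, and 1258.9, 1192.4, 1046.9 and 1120.7 at BKM120 IC90 (max). The first 3 of these groups each had 1 array near the BKM120 IC90 (max) level, and the same arrays were the high ones of their groups for 227062_at, at 73.8, 71.8 and 102.1. For 225239_at the highest GDC0941 max array lay within the range of the BKM120 IC90 (max) arrays, so those groups overlapped.

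Across the other 8 treatments the 218 probe sets were mostly at or slightly below DMSO. These comparisons share the 4 DMSO arrays that chose the members, and are given side by side without a test. At BKM120 IC30 the median difference was -0.15, with 50 of 218 above zero, and at IC50 it was -0.19, with 31 above zero. At BEZ235 IC50, IC90 and max the medians were -0.23, -0.06 and -0.05, with 37, 91 and 92 above zero. At GDC0941 IC50, IC90 and max they were -0.18, -0.15 and -0.10, with 32, 38 and 63 above zero. The median over all tested probe sets lay between -0.03 and 0.01 in each of the 9 treatments. Part of the negative medians came with DMSO replicate 2, where the 218 were high. Without it they were -0.09 at BKM120 IC30 and -0.14 at IC50, -0.01 and -0.00494 at BEZ235 IC90 and max, and -0.12, -0.09 and -0.05 for the 3 levels of GDC0941. At BEZ235 IC50 the median was -0.13 without the array with the high control differences.

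Counted by complete separation of 4 arrays from 4, few of the 218 stood above DMSO in any other treatment. The shares of all tested probe sets given beside the counts were not matched to the members for signal level. At BKM120 IC30, 3 lay wholly above DMSO and 30 wholly below it, where 11.5% and 11.9% of all tested probe sets did so. The 3 and the 30 were 1.38% and 13.8% of the members, and the 3 were 1570561_at, 230845_at and 236168_at. At BKM120 IC50, 4 lay above and 44 below, or 1.83% and 20.2% of the members, against 11.7% and 12.3% of all, the 4 being the same 3 and 228465_at. Without DMSO replicate 2 the counts were 11 above and 32 below at IC30, beside 14.4% and 14.0% of all tested, and 14 above and 45 below at IC50, beside 16.2% and 15.6%. The 11 and the 14 were 5.05% and 6.42% of the members, so the counts above DMSO rose over 3 times without that array and stayed under the background share, and at IC50 the share below DMSO, 20.2% with the array and 20.6% without it, was above it.

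The counts above DMSO for BEZ235 were 4, 16 and 20 at IC50, IC90 and max, beside background shares of 12.7%, 25.2% and 26.5%, and the counts below it were 25, 18 and 22, beside 14.0%, 24.1% and 24.7%. For GDC0941 at IC50, IC90 and max, 3, 5 and 11 lay above DMSO, beside 10.3%, 14.6% and 20.2%, and 17, 34 and 31 below, beside 9.29%, 13.9% and 18.6%. No member count above DMSO exceeded 9.17% of the 218. Without DMSO replicate 2 the counts above for BEZ235 were 5, 31 and 30, beside 15.2%, 28.6% and 29.6% of all tested, and those below were 27, 19 and 23, beside 15.6%, 26.0% and 26.7%. For GDC0941 they were 8, 14 and 17 above, beside 13.0%, 18.1% and 23.7%, and 18, 38 and 32 below, beside 10.8%, 16.4% and 20.7%. Without BEZ235 IC50 replicate 3, 7 members lay above DMSO and 26 below it at that level, beside 19.2% and 20.0%. At BKM120 IC90 (max), where the rule required separation, all 218 lay above DMSO, beside 18.3% of all tested probe sets.

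**Figure D3:**
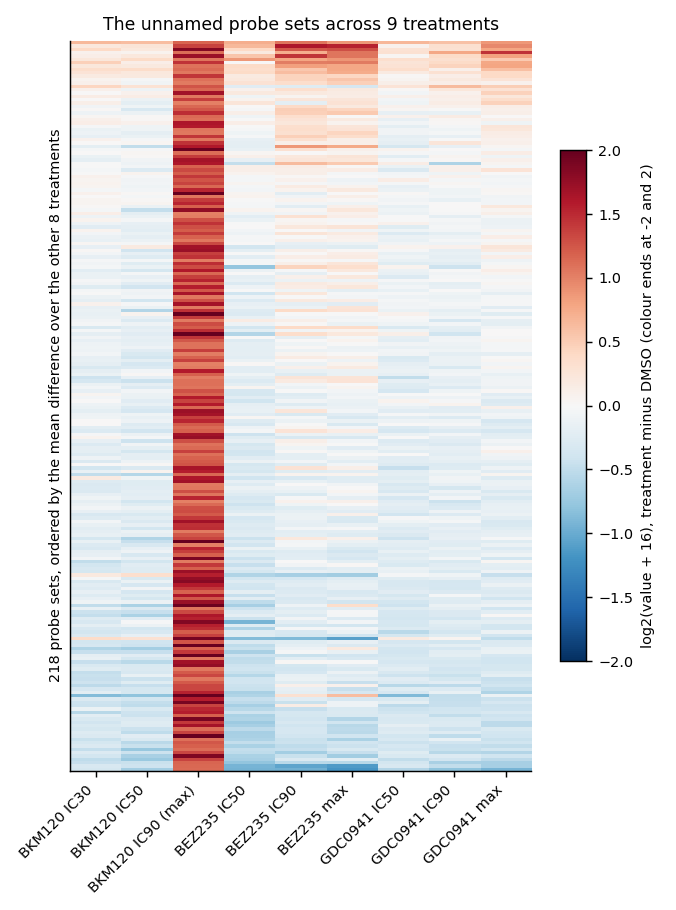
Difference from DMSO, as log2(value + 16), of the 218 probe sets (rows, ordered by their mean over the other 8 treatments) in the 9 treatments (columns). The BKM120 IC90 (max) column is the one used to choose the rows; in the other columns 202 rows stay under 0.5, and the few red rows at the top are those also higher with BEZ235 or GDC0941.

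Most members had their highest values at BKM120 IC90 (max) and nowhere else. In 205 of the 218, all 4 values of that group lay above all 36 other arrays, beside 4.09% of all tested probe sets, 12.3% of those without a symbol and 3.09% of those with 1. The mean of that group was the highest of the 10 in 216. Set against the same nominal level of the other compounds, the median difference was 1.39 over BEZ235 IC90 and 1.52 over GDC0941 IC90, with 211 and 218 members wholly above (background 21.2% and 16.2%). Set against their max levels it was 1.40 and 1.46, with 213 and 214 wholly above (background 22.1% and 15.6%), and over BKM120 IC50 it was 1.54, with 218 wholly above (background 18.4%). These values share the arrays that chose the members and are descriptive.

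Of the 218, 202 stayed under 0.5 above DMSO in every other treatment, and 79 were below DMSO in all 8. Above DMSO in all 8 were 11. These counts took in BEZ235 IC50 replicate 3 and DMSO replicate 2. The members' median differences from the DMSO mean on those arrays were -0.53 and 0.17. The 3 counts were not recomputed without either array, and the shares of all tested probe sets were not computed. A difference of at least 1 together with complete separation from DMSO was found for 6 in at least 1 level of BEZ235. It was found for 1 in a level of GDC0941 and for none at BKM120 IC30 or IC50. The 6 were 214657_s_at, 224566_at, 228465_at, 230845_at, 231337_at and 238902_at, and the 1 was 231337_at. Of all tested probe sets, 0.392%, 1.46% and 2.05% met both conditions at the 3 levels of BEZ235. The shares were 0.0591%, 0.203% and 0.846% at those of GDC0941, and 0.0886% and 0.0702% at BKM120 IC30 and IC50. At no treatment other than the one used to choose them did more than 5 members meet both conditions.

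The exceptions followed several patterns. 228465_at read 20.2, 27.2, 26.6 and 31.6 in DMSO, 76.1, 96.2, 91.7 and 103.1 at BKM120 IC90 (max), 115.7, 95.8, 140 and 104.6 at BEZ235 IC90, and 67.1, 66, 72.6 and 60 at GDC0941 max. It was as high with BEZ235 as with BKM120, with a difference of 1.61 at BEZ235 IC90 and 1.35 at BKM120 IC90 (max). 231337_at read 22.1, 25.8, 37.3 and 35.2 in DMSO, 75.4, 83.9, 87.3 and 86.8 at BKM120 IC90 (max) and 115, 103.4, 107.2 and 108.7 at GDC0941 max. All 4 GDC0941 max arrays lay above all 4 BKM120 IC90 (max) arrays, and it was the only member of which that held, beside 19.0% of all tested probe sets. 230845_at, the dimmest member in DMSO at 10.9, 4.1, 6.9 and 6.2, was above all DMSO arrays in all 9 treatments, with differences between 0.59 and 0.87 except at BEZ235 IC90 (1.07) and BKM120 IC90 (max) (1.17).

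1570561_at was the brightest member, at 10.67 in DMSO and 11.76 at BKM120 IC90 (max) on the log2(value + 16) scale, and was above DMSO in all 9 treatments, by 0.19 at BKM120 IC50 and 0.81 at BEZ235 IC90.

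At the other end were members lower than DMSO with every other compound and level. 1555392_at read 57.1, 73.2, 66.1 and 49.8 in DMSO and 158, 156.4, 148.7 and 146.4 at BKM120 IC90 (max), and its differences in the other 8 treatments ran from -0.35 at BKM120 IC30 to -1.17 at BEZ235 max. 243591_at had differences of 1.16 at BKM120 IC90 (max), -1.13 at BEZ235 max and -0.67 at GDC0941 max. 209446_s_at had differences of 1.16, -0.55 and -0.67 in the same 3 groups. At the highest levels of the compounds the 3 therefore lay on opposite sides of DMSO.

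Tests were run on 8 comparisons between groups other than DMSO and BKM120 IC90 (max). Each was fitted with limma over all 27074 probe sets, with Benjamini-Hochberg adjustment and a call at an adjusted p under 0.05. The main fit took in every array, so the DMSO and BKM120 IC90 (max) arrays that chose the members entered the variance behind each p-value. Only 178 of the 218 also passed the limit on the mean without the BKM120 IC90 (max) arrays. The counts of calls were not recomputed for these 178. Between BKM120 IC50 and IC30 no member was called in either direction, and neither was any other probe set (0% higher and 0% lower). At an unadjusted p under 0.05 there were 7 of the 218, while 8.51% of all tested passed. The median difference of the members was -0.06, so no step was detectable between the lower levels of BKM120.

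For BEZ235, 38 members were higher and 1, 237180_at, was lower (-0.37) at max than at IC50, beside 18.8% and 14.3% of all tested and 17.2% and 9.71% of the other probe sets without a symbol. The 38 were 17.4% of the members. Their count rested in part on BEZ235 IC50 replicate 3. Without that array 19 were higher and 4 lower, or 8.72% and 1.83% of the members beside 17.8% and 15.5% of all tested, and 17 of the 39 kept their call. The difference of 237180_at was then -0.46. The share of members that rose was thus near the background with that array and below it without. Without BEZ235 max replicate 2 there were 22 calls among the members, and the share of all tested was not recorded. The largest rise was that of 222168_at, from 70.8, 71.1, 9.4 and 83.9 at IC50 to 122.2, 174.2, 151.4 and 112 at max, a difference of 1.22 ± 0.23 (SE; limma adjusted p = 8.56e-05). The reading of 9.4 was on the doubted array, and without it the difference was 0.76 ± 0.14 (SE; limma adjusted p = 6.34e-05). 228465_at rose by 0.90 ± 0.12 (SE; limma adjusted p = 1.96e-07), and by 0.80 without that array. 224566_at, 222378_at and 244447_at rose by 1.03, 1.01 and 0.96, and by 0.55, 0.77 and 0.92 without it.

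For GDC0941, 10 members were higher and 3 lower at max than at IC50, or 4.59% and 1.38% of the members beside 13.8% and 11.5% of all tested. Both shares were below the background. After quantile normalization the balance turned, with 7 higher and 11 lower, beside 12.7% and 13.7%. 231337_at rose from 40.6, 40.4, 39.8 and 41.3 to 115, 103.4, 107.2 and 108.7, a difference of 1.14 ± 0.12 (SE; limma adjusted p = 4.53e-09). 228465_at rose by 0.88, 238902_at by 0.76, 222168_at by 0.76 and 235601_at by 0.51. The 3 that fell were 236168_at (-0.69), 242726_at (-0.43) and 239794_at (-0.35). The spread of BEZ235 IC50 replicate 3 entered this fit through the shared variance, and without that array 24 members were called, 17 higher and 7 lower, all 13 of these among them. They were 11.0% of the members, beside 35.5% of all tested.

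The step from IC50 to max was also compared between BEZ235 and GDC0941 by an interaction term in limma. The step is signed, max minus IC50, and the term is the step of BEZ235 minus that of GDC0941. It was called for 5 members, positive in all 5, beside 17.3% of all tested in either direction. They were 209446_s_at, 214731_at, 230401_at, 236484_at and 242467_at, with step differences between 0.37 and 0.75. A positive value did not always mean the longer step, since the steps of 209446_s_at were 0.24 for BEZ235 and -0.30 for GDC0941, and those of 230401_at were 0.13 and -0.24. The calls depended on BEZ235 IC50 replicate 3. Without it 4 members were called, beside 22.4% of all tested. The term was positive for 236484_at (0.52) and negative for 235601_at (-0.74), 237180_at (-0.57) and 243543_at (-0.49), so 1 of the 5 kept its call.

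At IC50 the compounds were compared in 3 pairs. BKM120 and GDC0941 differed in no member, beside 0.148% higher and 0.0591% lower of all tested, with a median difference of -0.02. At an unadjusted p under 0.05 there were 12 of the 218, while 12.8% of all tested passed. BKM120 was above BEZ235 in 12 members and below it in 6, beside 15.1% and 12.5% of all tested. BEZ235 was above GDC0941 in 3 and below it in 12, beside 13.8% and 16%. All of these member shares, at most 5.5%, were below the background, which was not matched for signal level. Without BEZ235 IC50 replicate 3 the balance of both turned. BKM120 was then above BEZ235 in 6 members and below it in 18, beside 13.2% and 13.0%, and BEZ235 was above GDC0941 in 10 and below it in 5, beside 14.2% and 14.7%, with 8 of the 18 calls and 8 of the 15 calls kept. After quantile normalization BKM120 was above BEZ235 in 12 and below it in 11, beside 13.8% and 13.3%. The calls for BKM120 against BEZ235 were 11 without BKM120 IC50 replicate 1 and 28 without BEZ235 IC50 replicate 4. Those for BEZ235 against GDC0941 were 25 without BEZ235 IC50 replicate 4. For these fits with 1 array left out, the share of all tested was not recorded. The count for BKM120 against GDC0941 was 1 without BEZ235 IC50 replicate 3, beside 2.47% of all tested.

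236168_at was the clearest difference between compounds at IC50. It read 164.4, 200, 180 and 157 with BKM120, 150.9, 139.1, 164 and 183.8 with GDC0941 and 96.1, 92.8, 19.7 and 103.9 with BEZ235. BKM120 lay 1.17 ± 0.20 (SE; limma adjusted p = 4.71e-05) above BEZ235, and BEZ235 lay 1.04 below GDC0941 (limma adjusted p = 0.000165). Without the array that read 19.7 the differences were 0.75 and -0.62 (limma adjusted p = 4.37e-06 and 5.57e-05). The BEZ235 values did not overlap those of either other compound. 242726_at was likewise 0.93 higher with BKM120 than with BEZ235, and 0.78 without BEZ235 IC50 replicate 3. The 3 members higher with BEZ235 than with GDC0941 were 228465_at (0.55), 238902_at (0.52) and 244757_at (0.31). Without that array the 3 differences were 0.65, 0.76 and 0.38.

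At IC90, 30 members were higher with BEZ235 than with GDC0941 and 5 were lower, or 13.8% and 2.29% of the members beside 19.3% and 18.1% of all tested. 228465_at, at 115.7, 95.8, 140 and 104.6 with BEZ235 and 29.1, 42, 32 and 46.5 with GDC0941, differed by 1.29 ± 0.12 (SE; limma adjusted p = 5.32e-11). 225239_at, 238902_at, 244447_at and 214657_s_at were 1.24, 1.05, 1.03 and 0.93 higher with BEZ235. Lower with BEZ235 were 236168_at (-0.93), 243543_at (-0.88), 242726_at (-0.58), 243591_at (-0.56) and 230599_at (-0.32). Both member shares were below the background. More of the called members were higher with BEZ235, while all tested probe sets divided nearly evenly. The other probe sets without a symbol stood at 17.8% higher and 14.3% lower.

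At max, 12 were higher with BEZ235 than with GDC0941 and 5 lower, beside 15.5% and 15.9% of all tested. 222168_at was 0.74 higher with BEZ235, 244447_at 0.72, 228465_at 0.58, 243537_at 0.49 and 230387_at 0.48. 243543_at read 2.5, 4.7, 7.1 and 5.2 with BEZ235 and 23.7, 19.8, 26.6 and 15.7 with GDC0941, a difference of -0.84 ± 0.13 (SE; limma adjusted p = 3.5e-06). This probe set was close to the bottom of the scale with BEZ235, where the added 16 understates its change. The other 4 that were lower with BEZ235 were 236168_at (-0.57), 243591_at (-0.46), 231337_at (-0.38) and 241954_at (-0.50). There were 11 calls without BEZ235 max replicate 1 or without GDC0941 max replicate 1, where the share of all tested was not recorded. Without BEZ235 IC50 replicate 3 there were 27, or 12.4% of the members beside 40.8% of all tested.

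The unnamed class as a whole met the selection limits several times more often than named probe sets in 1 treatment. At BKM120 IC90 (max), 199 of 2867 tested probe sets without a symbol (6.94%), 19 of 1102 with several (1.72%) and 231 of 23105 with 1 (1.00%) met them, which together made 1.66% of all tested. In the opposite direction, with the limits reversed, the shares were 0.174% for no symbol and 0.225% for 1 symbol. A dim probe set has little room to fall by 1 on the log2(value + 16) scale, so the directions are not alike in what they can show. In the other 8 treatments the share without a symbol was close to the share with 1 symbol or below it, at 0.0349% and 0.0995% for BKM120 IC30, 0.0349% and 0.0779% for BKM120 IC50, 1.46% and 1.45% for BEZ235 IC90, 2.09% and 2.03% for BEZ235 max and 0.907% and 0.857% for GDC0941 max. For BEZ235 IC50, with replicate 3 included, they were 0.244% and 0.42%, and for GDC0941 IC90 0.105% and 0.225%. At GDC0941 IC50 no probe set without a symbol met the limits, while 0.0692% of those with 1 symbol did.

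Probe sets without a symbol were dimmer, and the shares were compared at like DMSO level. The median DMSO level on the log2(value + 16) scale was 5.40 for the members, 6.19 for the other tested probe sets without a symbol and 7.53 for those with 1. The mean over 40 arrays includes the 4 arrays that chose the members, so a dim probe set could pass the limit on the mean because it was high there. With the same limit on the mean of the other 36 arrays as well, 178 of the 218 remained, and the limits were met by 160 of 2771 probe sets without a symbol (5.77%) and 206 of 23017 with 1 (0.895%). Among these, the share below a DMSO level of 5 was 4.24% without a symbol and 1.94% with 1, between 5 and 5.5 it was 9.75% and 2.43%, and between 5.5 and 6 it was 12.5% and 2.27%. Between 6 and 7 it was 6.25% and 0.984%, between 7 and 8 it was 1.19% and 0.676%, and above 8 it was 0.155% and 0.176%. The share without a symbol was the higher in the 5 ranges below 8 and not above 8, where it rested on 1 probe set.

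**Figure D4:**
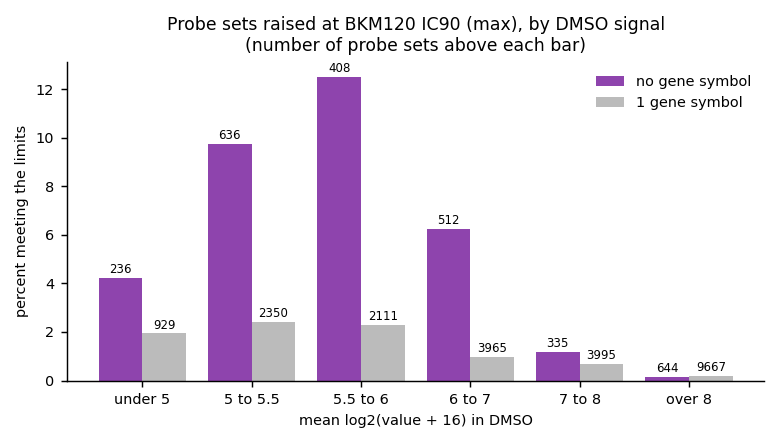
Percent of probe sets that met the selection limits at BKM120 IC90 (max), among those whose mean passed the limit on all arrays and on the 36 others, by mean log2(value + 16) in DMSO, for probe sets with no gene symbol and with 1. The number above each bar is the number of probe sets in that range; the shares without a symbol are 4.24%, 9.75% and 12.5% in the 3 dimmest ranges and 0.155% above 8.

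The members also differed in design from other probe sets. Plain "_at" identifiers, which mark probe sets designed to match a single transcript, made up 196 of the 218 (89.9%). They made up 67.4% of the other tested probe sets without a symbol, 58.0% of those with 1 symbol and 40.5% of the others with several. Only 9 members (4.13%) were "_s_at" designs, shared by several transcripts, and 10 (4.59%) were "_x_at" designs, in which some probes may match other sequences. Among the other probe sets without a symbol these were 17.8% and 12.9%.

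The same limits were applied to named genes, where several probe sets of a gene could be set side by side. Whether the named probe sets that met the limits read the same kind of signal as the unnamed members was not tested. The limits were met by 231 probe sets with 1 symbol, of 202 genes. Of these genes, 169 had more than 1 tested probe set, and only in 8 did every one of them meet the limits. In 141 of the 169 the brightest probe set did not meet them. In those 141 genes the brightest probe set differed from DMSO by a median of 0.07 (quartiles -0.05 and 0.27), with 122 of them under 0.5, while the probe set with the largest difference had a median of 1.33, a value held up by the limit of 1. The 141 were picked because their brightest probe set missed the limits, so its small difference is in part fixed by that choice.

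The 8 named genes with the largest difference showed this pattern in part. MALAT1, a long noncoding RNA of the nucleus, had 12 tested probe sets, of which 7 met the limits, with differences from 0.48 to 3.38. All 12 means were higher at BKM120 IC90 (max), that of 224559_at by the most. NAV1, which encodes a microtubule-associated protein, had 1 of 6 tested probe sets above the limit, 242986_at at 2.50, with the others between 0.18 and 0.42. CTTN, which encodes the actin-binding protein cortactin, had 1 of 4 tested, 214782_at at 2.17, with the others between -0.34 and 0.13.

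PRKDC, the catalytic subunit of a DNA repair kinase, had 215757_at at 2.09 and its other 2 probe sets at -0.19 and -0.18. NBR1, an autophagy receptor, had 1568857_a_at at 2.23 and its other tested probe sets at 0.43 and 0.48. A further NBR1 probe set, 1568856_at, was 1.77 above DMSO but fell under the limit on the mean. GPATCH2L had 229514_at at 2.15 and the others between 0.01 and 0.51. NT5DC4 and EBLN2 had a single tested probe set each, at 2.10 and 2.07. In 5 of the 6 genes with several tested probe sets, therefore, 1 of these met the limits and the other tested ones did not, and MALAT1 was the exception. These genes were picked by the same contrast, and the values describe it.

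**Figure D5:**
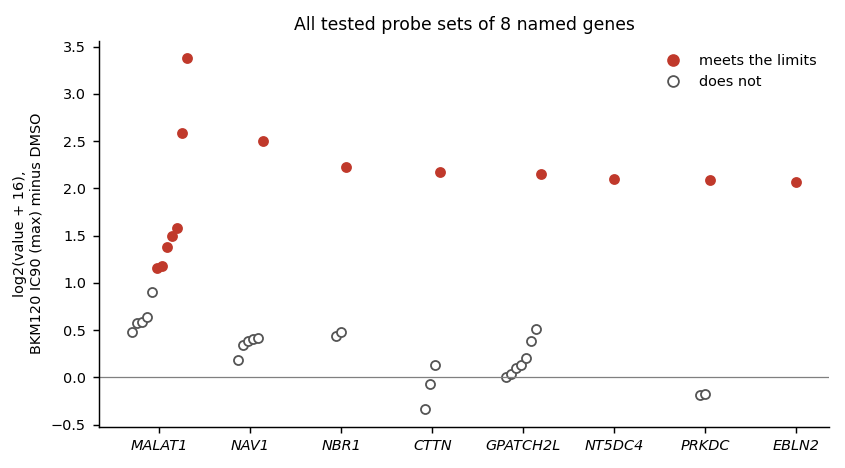
Difference between BKM120 IC90 (max) and DMSO, as log2(value + 16), of every tested probe set of the 8 named genes with the largest difference. Filled points met the limits used for the unnamed probe sets and open points did not; PRKDC has 1 probe set at 2.09 and the other 2 near -0.2, while 7 of the 12 MALAT1 probe sets met the limits.

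On the 32 arrays of the other 8 treatments, the correlation between pairs of members had a median of 0.24 (quartiles 0.07 and 0.40). After removing group means it was 0.28. Both values took in BEZ235 IC50 replicate 3. No value was computed without that array, or for pairs of other probe sets as a baseline. The 32 arrays share scaling, RNA quality and processing, and the values are descriptive. The named genes most like the mean profile of the members over these arrays were RANBP2, a nuclear pore protein, at r = 0.82, EIF3C, a translation initiation factor subunit, at 0.81, and the noncoding RNA GAS5, the ribosomal RNA processing factor RBM19 and the splicing-related cyclin CCNL1, each at 0.80. TRIM52, ZNF814 and GTF2H2B followed at 0.79. EIF3C and GTF2H2B have near-identical copies in the genome, so their probe sets may read more than 1 gene. Without BEZ235 IC50 replicate 3 the 8 correlations ran from 0.64 to 0.77, so all were lower without it.

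At BKM120 IC90 (max) GTF2H2B and EIF3C were 1.82 and 1.62 above DMSO, and 2 of the 8 met the limits, beside 1.00% of probe sets with 1 symbol. The 8 were drawn from the brightest tested probe set of each gene, and the share among those was not computed. The differences of RANBP2 (-0.10), CCNL1 (0.00), TRIM52 (0.13), RBM19 (-0.30), ZNF814 (-0.33) and GAS5 (-0.84) were between -0.84 and 0.13.

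The limits cut through a continuous distribution. Just inside the limit of 1 were 1556055_at, 215599_at and 237483_at, each at 1.01, and just outside it were 241816_at (0.998), 239404_at (0.995) and 231641_at (0.993). 237483_at read 75.4, 64.8, 69.2 and 58.1 in DMSO and 144.8, 150.1, 137.7 and 170.5 at BKM120 IC90 (max). 241816_at read 7.5, 15.9, 13.6 and 9.7 in DMSO and 42.7, 36.6, 33.1 and 43.8 at BKM120 IC90 (max), a larger ratio that the added 16 brought under the limit.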

How the data were processed

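The 40 samples were 1-colour oligonucleotide arrays of biotin-labelled product from 50 ng of total RNA, amplified with a linear system per the labels' protocols. The deposited values were linear intensity values made with MAS5 per the submitters' processing notes, with no version stated. After trimming, the mean of each array (2% cut at each end) was 150. Precision is set by the 4 arrays in each group, since arrays have no read depth.

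The scale used was log2(value + 16), and arrays were not normalized again. Gene symbols came from the platform annotation. The 62 array controls were left out, and 27074 probe sets with a mean of at least 4.89 entered limma 3.58.1 (R 4.3.3), with 1 mean for each of the 10 groups over 40 arrays (30 residual degrees of freedom), a variance trend and Benjamini-Hochberg adjustment within each of 8 comparisons. Members, gene lists, comparisons and alternatives were chosen with earlier results of these data known.

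The probe sets named were the 12 with the largest difference at BKM120 IC90 (max), up to 5 per direction in each comparison by size among those called with no overlap, the 3 highest and 3 lowest over the other 8 treatments and the 3 on each side of the limit, plus the 8 most similar and the 8 most raised single-symbol genes. Members named in counts of 6 or fewer, the 5 sharing a symbol pair, and those of the interaction were chosen after their values were seen. The fit was tested on simulated data. Alternatives were other pseudocounts, filters, quantile normalization, only the arrays compared, the replicate number as a block, no variance trend, and leaving out each array.

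Replicate numbers are shared between the groups' labels. In none of the 8 comparisons were all same-numbered arrays correlated above 0.1 in their deviations from the group means.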

Additional observations from a re-analysis of the deposited data

Results flagged for a closer look

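The 3' to 5' differences stood apart on 2 arrays, where 54 sets of 4 arrays were examined and 3 held such an array. A rate of 1 in 20 gives about that number, but 2 of the 3 were BEZ235 IC50 replicate 3 and were not independent. Both values of that array lay far outside the other 39 arrays, which ran from 0.664 to 1.22 for ACTB and from 0.0699 to 0.339 for GAPDH. BEZ235 IC50 replicate 3 had an ACTB difference of 4.76, with the other 3 of its group between 1.02 and 1.09, and a GAPDH difference of 1.78, with the others between 0.190 and 0.286. DMSO replicate 4 had a GAPDH difference of 0.160, with the other 3 between 0.218 and 0.224. The number of members found was between 202 and 240 when each array of the chosen groups was left out.

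The step from IC50 to max differed between BEZ235 and GDC0941 in 5 members by the interaction term in limma, and in 4 without BEZ235 IC50 replicate 3, of which 1 was among the 5. The difference of the signed steps was positive in all 5, and without that array positive in 1 and negative in 3.

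Below the limit on the mean, 89 of 9553 probe sets without a single symbol met the other limits at BKM120 IC90 (max), the highest at 1.92. Of 17986 dim probe sets with 1 symbol, 46 did so. These were left out of the 218.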

How the results depend on the processing

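The number of members was 218 and depended most on the added constant and the limit: 139 with a pseudocount of 1 (97 of them among the 218; the limit on the mean is then stricter), 52 with 64 (all 52 among them) and 144 with a limit of 1.2. It was 315 with a limit of 0.8, 199 after quantile normalization and 202 to 240 with 1 array left out. The share without a symbol was above the share with 1 in each setting recomputed: 3.94% against 1.02% with a pseudocount of 1, 1.5% against 0.329% with 64, and 6.31% against 0.926% after quantile normalization. The shares were recomputed after the data were seen, as were the counts without DMSO replicate 2, the interaction without BEZ235 IC50 replicate 3, the limit on the mean of 36 arrays, and the shares of all tested probe sets beside these.

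Counts of called members moved most with the arrays in the fit. With only the 8 arrays compared, they were 9 for BEZ235 max against IC50 (39 with all arrays), 23 for GDC0941 max against IC50 (13), 2 for BKM120 against BEZ235 at IC50 (18), 0 for BEZ235 against GDC0941 at IC50 (15) and 27 at max (17). With no filter on dim probe sets, GDC0941 max against IC50 had 8 and BKM120 against BEZ235 at IC50 had 11. Of all 54613 probe sets then tested, 6307 and 6439 were called. A filter at the 60th percentile kept only 80 of the 218, so its counts are out of 80 and not 218. They were 9 for BKM120 against BEZ235 at IC50, 8 for BEZ235 against GDC0941 at IC50, 23 at IC90 and 10 at max. Of all probe sets left by that filter, 7014, 7450, 8883 and 7621 were called. In the main fit the totals were 7478, 8068, 10119 and 8493. The cause of the other moves was not tested. With 1 array left out, the counts ran from 22 to 55 for BEZ235 max against IC50, from 9 to 24 for GDC0941 max against IC50, from 11 to 28, 0 to 1 and 10 to 25 for the 3 pairs at IC50 (BKM120 against BEZ235, BKM120 against GDC0941, BEZ235 against GDC0941), and for BEZ235 against GDC0941 from 25 to 44 at IC90 and 11 to 27 at max. Except without BEZ235 IC50 replicate 3, shares of all tested probe sets were not recorded with 1 array left out, nor with only 8 arrays. Whether those moves were particular to the members was not tested. In the BKM120 step from IC30 to IC50 the count was 0 in every setting run. Quantile normalization turned the balance of GDC0941 max against IC50 from 10 higher and 3 lower to 7 and 11. Leaving out BEZ235 IC50 replicate 3 turned BKM120 against BEZ235 at IC50 from 12 and 6 to 6 and 18, and BEZ235 against GDC0941 at IC50 from 3 and 12 to 10 and 5.

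The member medians against DMSO scaled with the pseudocount. At BKM120 IC50 the median was -0.32 with 1 and -0.086 with 64, at GDC0941 IC90 -0.24 and -0.067, and at GDC0941 max -0.18 with 1. With 1 array left out it ran from -0.22 to -0.14 at BKM120 IC50, from -0.18 to -0.09 at GDC0941 IC90 and from -0.15 to -0.05 at GDC0941 max. All 8 medians stayed below zero in every setting run.

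The samples share only a replicate number. With the replicate block the 8 counts were 0, 35, 11, 18, 0, 13, 34 and 16, in the order of the comparisons in the text (BKM120 step, BEZ235 step, GDC0941 step, BKM120 against BEZ235, BKM120 against GDC0941 and BEZ235 against GDC0941 at IC50, then at IC90 and max), none over 1.5 times from the unblocked count. Over all tested probe sets the calls with the block were 0, 8867, 6767, 7338, 53, 7938, 9966 and 8398, in the same order. No comparison had every array most like its own number. Intensities near the bottom of the scale limit what the dimmest members can show.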
